A study of Mus musculus with 15 samples.

Results

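Replacement histones and high mobility group (HMG) proteins are described here as 10 genes in mouse CD8+ T cells before and after antigen stimulation. The genes were taken by name, as all rows of the count tables with the symbols H2afz, H2afx, H2afv, H2afy, H3f3a, H3f3b, Hmgb1, Hmgb2, Hmgn1 and Hmgn2. They make up 10 of 17493 genes in the tables, and all 10 were among the 10831 genes with enough counts to be tested. Together they held 0.317% to 0.432% of the counts of a library.

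The T cells were CD8+ OT-I lymphocytes, which carry a transgenic T cell receptor for an ovalbumin peptide, from spleen and lymph nodes of female OT-1 mice (C57BL/6-Tg(TcraTcrb)1100Mjb/Crl). Mouse age was not given in the sources used here. There were 5 groups of 3 libraries: cells with no treatment at 0 h, cells with immunofilaments (IF) for 8 h or 22 h, and cells with dendritic cells (DC) for 8 h or 22 h. The immunofilaments, synthetic polymers used at 5 ng/ml, carried MHC loaded with SIITFEKL, a variant of the ovalbumin peptide, together with interleukin-2. The dendritic cells had been grown with Flt-3 ligand and were pulsed with the same peptide, at 20000 per well, and each stimulated well received 50000 T cells. The labels name interleukin-2 for the immunofilaments alone, so its part in a difference between IF and DC cannot be told apart. Viable CD8+ CD103- cells were then sorted. All 5 groups carry the same receptor transgene, and the unstimulated cells were taken at 0 h, so time in culture and stimulation cannot be told apart in a comparison with them. The sample titles number the libraries 1 to 3 in each group after the tag "Don", which the labels do not explain. They do not say that the numbered replicates are separate animals, so p-values measure the spread between these libraries.

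Most histone proteins are made in S phase from clustered genes and are laid down behind the replication fork. Replacement histones are made from separate genes throughout the cell cycle, mostly as polyadenylated messages, and enter chromatin through their own chaperones, in place of a canonical histone. The HMG box proteins bend DNA, and the HMGN proteins bind nucleosomes and compete with linker histone. Naive T cells have condensed chromatin that opens as they are activated and leave quiescence, which makes these genes of interest in the first day of stimulation.

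Total counts ran from 2892874 to 19806730 per library. The T cell list was present in all groups, with 7 of its 8 genes in the tables and none of the 7 at 0 throughout a group, while Cd4 was at 0 in all groups but IF 22 h. The summed level of these T cell genes was 8515 to 9240 CPM (normalised read counts, scaled to the library total) in unstimulated cells. With IF it was 4734 to 4770 CPM after 8 h and 5247 to 6155 CPM after 22 h, and with DC 3829 to 4611 CPM and 4149 to 5278 CPM. In such bulk samples fewer cells of a type and less RNA per cell cannot be told apart. Replicates 2 and 3 of IF 22 h stood apart from the other 13 libraries. Mitochondrial ribosomal RNA made up 0.179% and 0.146% of their counts, against 1.82% to 4.49% elsewhere, and 124 genes lay over 2-fold below all other libraries in both. None of the 10 members was in that set, and the calls at IF 22 h are given with and without these libraries. Without replicates 2 and 3 that group holds 1 library, so a call lost in that fit is not read as a result on the members.

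The start regions of 3 members are shown first, because H2afz fell at 8 h while its close relative H2afv did not pass the test, and because Hmgb2 differed between the stimuli. Each is the 250 bases before the RefSeq start site in GRCm38.p6, written on the gene's own strand. H2afz lies at chr3:137864237-137864486 (plus strand), H2afv at chr11:6444444-6444693 (minus strand) and Hmgb2 at chr8:57511593-57511842 (plus strand). Capitals mark CCAAT, the core of the site for the factor NF-Y, TTTGAA, the cell cycle homology region found in many genes expressed in G2 and M phase, and their reverse complements ATTGG and TTCAAA.
H2afz: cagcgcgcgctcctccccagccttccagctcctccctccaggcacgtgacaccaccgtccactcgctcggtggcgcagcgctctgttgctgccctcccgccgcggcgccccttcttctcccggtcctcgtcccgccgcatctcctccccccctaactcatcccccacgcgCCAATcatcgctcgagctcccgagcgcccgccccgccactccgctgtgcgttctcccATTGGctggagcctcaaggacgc
H2afv: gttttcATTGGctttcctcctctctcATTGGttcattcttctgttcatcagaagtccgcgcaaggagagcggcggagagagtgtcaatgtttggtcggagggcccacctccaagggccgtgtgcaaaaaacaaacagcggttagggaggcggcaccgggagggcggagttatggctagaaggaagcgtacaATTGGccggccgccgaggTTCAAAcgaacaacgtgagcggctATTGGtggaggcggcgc
Hmgb2: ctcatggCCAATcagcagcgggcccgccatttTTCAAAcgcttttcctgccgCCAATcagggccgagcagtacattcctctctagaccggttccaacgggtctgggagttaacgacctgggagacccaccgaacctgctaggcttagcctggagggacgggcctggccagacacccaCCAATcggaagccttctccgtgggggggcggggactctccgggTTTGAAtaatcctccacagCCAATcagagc

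The H2afz window held CCAAT at 80 bases and its reverse complement at 23 bases before the start, and no TTTGAA. The H2afv and Hmgb2 windows held 4 CCAAT matches each, with 1 TTTGAA match in H2afv and 2 in Hmgb2, at 218 and 30 bases before the start. In all, 9 of the 10 members had an entry in the RefSeq table, with 10 windows because Hmgb1 has 2 starts. On either strand, CCAAT occurred in 7 of the 10 windows against 33.8% of 32851 windows of all genes, GGGCGG (the GC box) in 8 against 32.7%, and TTTGAA in 2 against 16%. TATAAA occurred in 1, H3f3b, against 12.4%. The member windows held 54% to 78.8% G and C, against a median of 52.4% over all windows. The shares were not adjusted for this. None of the 10 windows held TGACGTCA (the cAMP response element, 1.55% of all windows) or any of the E2F sites TTTGGCGC, TTTGCCGC, TTTCGCGC and TTTCCCGC (1.86% of all windows). The windows of the members overlap other transcripts in places: GENCODE vM21 places 138 bases of the antisense gene Gm43403 in that of H2afz, and 214 bases of longer H3f3b transcripts in that of H3f3b. A match is a description of the letters, not a measured binding site.

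**Figure D1:**
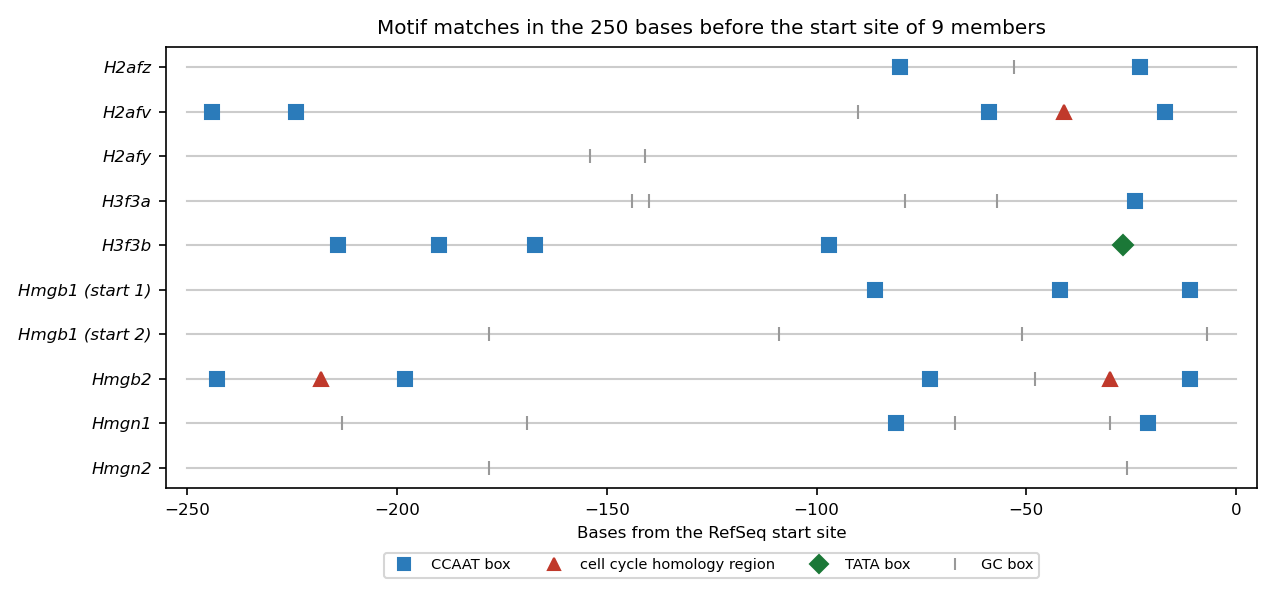
Motif matches in the 250 bases before the RefSeq start of 9 members (x axis: bases from the start site; 1 row per window; blue squares CCAAT boxes, red triangles cell cycle homology regions, green diamond TATA box, grey ticks GC boxes). H2afv and Hmgb2 carry both CCAAT boxes and a cell cycle homology region, and H3f3b has 4 CCAAT boxes and the TATA box.

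Over the 4 comparisons with unstimulated cells, which share the same 3 control libraries, no member rose and 3 different genes fell. At IF 8 h 1 of 10 members passed the test, lower, while 7.76% of all tested genes passed in either direction. At DC 8 h it was also 1 of 10, lower, against 6.82% of all genes. At IF 22 h 2 of 10 fell against 6.08% of all genes, and at DC 22 h 1 of 10 fell against 7.76%. The test was edgeR's quasi-likelihood test at an adjusted p of 0.05 over all tested genes. A share of 1 in 10 genes is near this background, so the counts are read as results on single genes and not on the group. The median log2 fold change of the 10 members at 8 h was -0.21 with IF and -0.33 with DC, against 0.02 and 0.04 over all tested genes. At 22 h it was -0.14 with IF and -0.01 with DC, against 0.01 and 0.04.

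**Figure D2:**
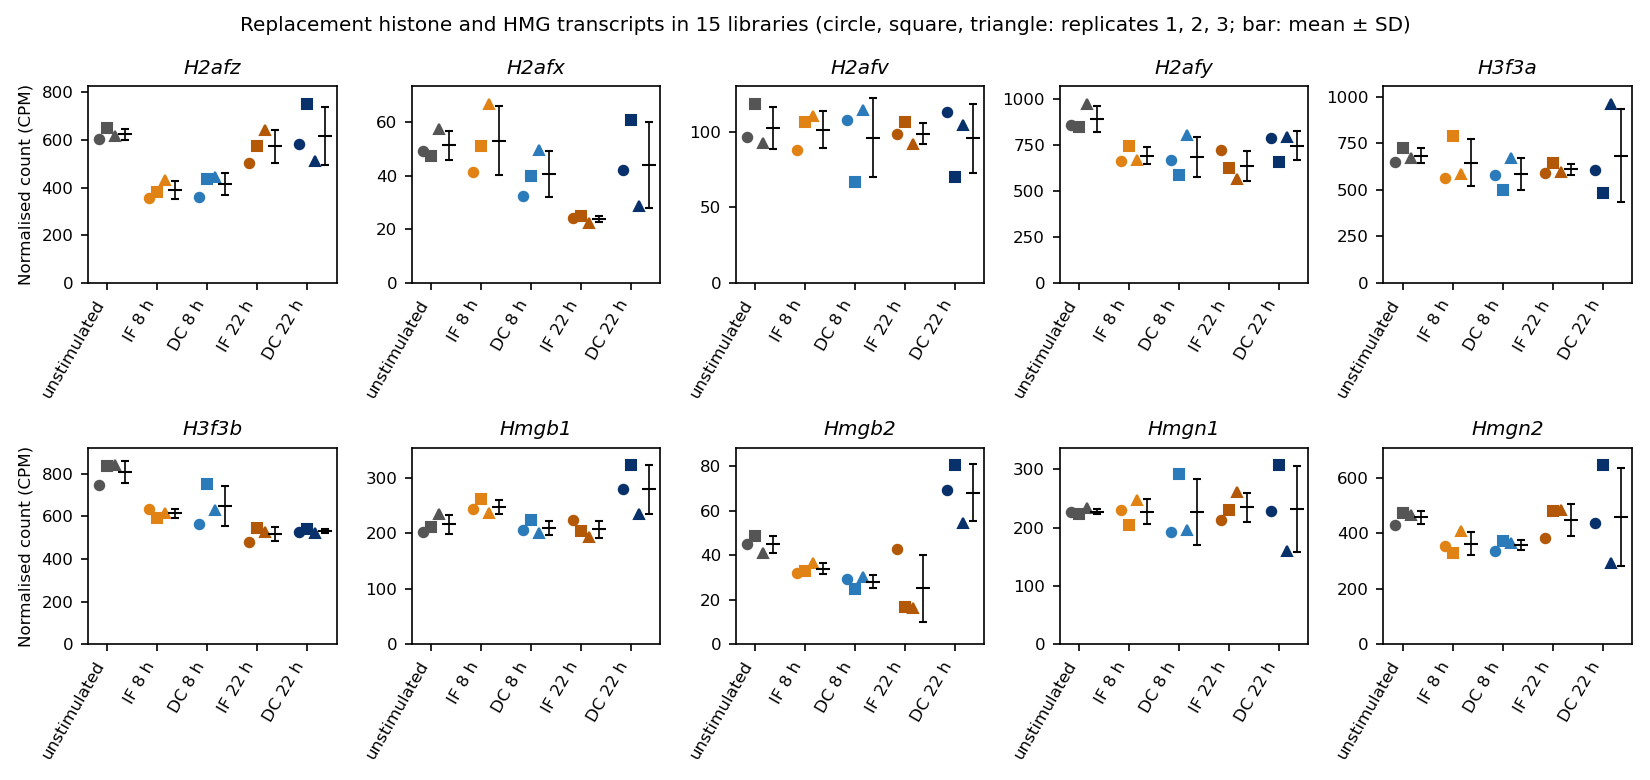
Level of each member in every library (y axis: normalised count in CPM, from 0; x axis: group; circle, square and triangle are replicates 1, 2 and 3; the bar is the group mean with its SD). H2afz is low in all 6 libraries at 8 h, H3f3b is low in all 6 at 22 h, H2afx is low in the 3 IF 22 h libraries, and Hmgb2 is low in 2 of those 3 and highest at DC 22 h.

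H2afz (chr3:137864487-137866922, plus strand) encodes H2A.Z, the variant placed at promoters and enhancers by the SRCAP and EP400 complexes. Its level was 605, 651 and 615 CPM in the unstimulated libraries, 355, 383 and 433 CPM at IF 8 h, and 361, 437 and 445 CPM at DC 8 h. At 22 h it was 504, 575 and 642 CPM with IF and 583, 752 and 513 CPM with DC. Every library at 8 h lay below every unstimulated library and every library at 22 h, and the 22 h values overlapped those of unstimulated cells.

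At IF 8 h H2afz fell by 0.68 ± 0.16 (SE) on the log2 scale, from 624 ± 24.3 to 390 ± 39.2 CPM (SD, n = 3), with an adjusted p of 0.0166 by edgeR. At DC 8 h it fell by 0.59 ± 0.16, to 415 ± 46.1 CPM, with an edgeR adjusted p of 0.0334. At 22 h the log2 fold change was -0.12 (95% interval -0.45 to 0.22) with IF and -0.02 (-0.35 to 0.32) with DC. The IF value was -0.30 without IF 22 h replicates 2 and 3 (edgeR adjusted p = 0.718). From 8 h to 22 h it was 0.56 ± 0.16 with IF (edgeR adjusted p = 0.114) and 0.57 ± 0.16 with DC (edgeR adjusted p = 0.164), neither past the threshold by edgeR, while the DESeq2 adjusted p was 0.0343 and 0.0330, and the IF value was 0.65 without IF 22 h replicate 1 (edgeR adjusted p = 0.0385). Both calls at 8 h were close to it: scaled by library size alone the H2afz log2 fold change was -0.43 with IF and -0.32 with DC (edgeR adjusted p = 0.0914 and 0.198). Without 1 library at a time, the IF call was kept in 3 of 6 fits and lost without unstimulated replicate 2, IF 8 h replicate 1 or IF 8 h replicate 2 (edgeR adjusted p at most 0.0751), with log2 fold changes of -0.76 to -0.62. The DC call was kept in 0 of 6 (edgeR adjusted p of 0.057 to 0.144), with log2 fold changes of -0.63 to -0.50.

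H2afv (chr11:6427229-6444443, minus strand) encodes a second form of H2A.Z, which differs from it by a few residues. Its level was 97, 119 and 92.4 CPM in unstimulated libraries, and its group means lay between 95.8 ± 22.8 CPM at DC 22 h and 103 ± 14.0 CPM in unstimulated cells. The groups overlapped throughout, and the log2 fold change at IF 8 h was -0.02 (95% interval -0.48 to 0.44). Of 12 tested genes that exchange or remove H2A.Z, such as Ep400 and Anp32e, 0 passed by edgeR in any comparison. At both 8 h comparisons 2 of them had an unadjusted p under 0.05, and DESeq2 called 1 at IF 8 h and 0 at DC 8 h. The list median log2 fold change was 0.09 with IF and 0.11 with DC at 8 h.

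H2afx (chr9:44334694-44336077, plus strand) encodes H2A.X, the variant phosphorylated next to DNA breaks. Its gene gives both a polyadenylated message and, in S phase, a stem-loop message without that tail, so these counts stand for the polyadenylated part. Its level was 49.0, 47.4 and 57.3 CPM in unstimulated libraries, 41.4, 51.1 and 66.7 CPM at IF 8 h, and 32.3, 39.9 and 49.5 CPM at DC 8 h. At 22 h it was 24.0, 24.9 and 22.5 CPM with IF and 42.1, 60.8 and 28.8 CPM with DC. All 3 IF 22 h libraries lay below the other 12, and they lay close together, replicate 1 included. The other 4 groups overlapped one another.

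At IF 22 h H2afx fell by 1.11 ± 0.26 on the log2 scale against unstimulated cells (edgeR adjusted p = 0.0170), to 23.8 ± 1.22 CPM from 51.2 ± 5.30 CPM (SD, n = 3). Between 8 h and 22 h of IF it fell by 1.16 ± 0.26 (edgeR adjusted p = 0.0432), where 1 of 10 members passed, lower, against 1.12% of all genes. Against DC at 22 h the log2 fold change was -0.88 ± 0.25, with an edgeR adjusted p of 0.0833, a DESeq2 adjusted p of 0.0253 and an edgeR adjusted p of 0.0161 without the low-count filter. Leaving out 1 library at a time gave -0.58 without DC 22 h replicate 2 and -1.11 without DC 22 h replicate 3, the 1 of 6 such fits that passed (edgeR adjusted p = 0.0235). Without IF 22 h replicates 2 and 3 together the log2 fold changes against unstimulated cells and against IF 8 h were -1.09 and -1.13, about as large, with edgeR adjusted p of 0.313 and 0.761. With 1 library left out the first call was kept in 3 of 6 fits and lost without unstimulated replicate 3, IF 22 h replicate 2 or IF 22 h replicate 3, and the second was kept in 1 of 6, with log2 fold changes of -1.15 to -1.02 and -1.30 to -0.95. With the replicate number as a block the second was -1.14 (edgeR adjusted p = 0.0515). A microRNA gene on the opposite strand, Gm44335, shares 141 exonic bases with H2afx.

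Of 11 tested genes that act with H2A.X at DNA breaks, 0 passed at IF 22 h by edgeR, with 1 at an unadjusted p under 0.05 and 0 called by DESeq2, where 6.08% of all genes passed by edgeR. At DC 22 h, where 7.76% of all genes passed, 2 rose: Rad50, of the break-sensing MRN complex (log2 fold change 1.53, edgeR adjusted p = 0.00409), and Baz1b, a kinase of H2A.X (0.74, edgeR adjusted p = 0.0121). The list median at DC 22 h was 0.72, against 0.04 over all genes. Between IF and DC at 22 h, 0 of these 11 passed by edgeR, with 5 at an unadjusted p under 0.05 and 1 called by DESeq2, and 2 passed, lower with IF, without IF 22 h replicate 1.

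H2afy (chr13:56073619-56136361, minus strand) encodes macroH2A1, a variant with a large extra domain found in repressed chromatin. Its level was 858, 847 and 974 CPM in unstimulated libraries, and all 12 stimulated libraries lay below them, between 563 and 805 CPM. The log2 fold changes, -0.37 (IF 8 h), -0.38 (DC 8 h), -0.49 (IF 22 h) and -0.26 (DC 22 h), did not pass by edgeR with all libraries and groups in the fit, the smallest adjusted p being 0.0637 at IF 22 h, where the DESeq2 adjusted p was 0.0177. The H2afy value at IF 22 h was -0.31 without replicates 2 and 3 of that group (edgeR adjusted p = 0.684), and -0.59 without replicate 1 (edgeR adjusted p = 0.0299). With only the compared groups fitted, H2afy was -0.36 at IF 8 h (edgeR adjusted p = 0.0397). The antisense gene Gm47071 shares 501 exonic bases with it.

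H3f3a (chr1:180800832-180813943, minus strand) and H3f3b (chr11:116021912-116027962, minus strand) encode the same H3.3 protein, which is laid down in active genes by HIRA and in silent repeats by ATRX and DAXX. H3f3b was at 750, 837 and 839 CPM in the unstimulated libraries. It was at 635, 592 and 616 CPM at IF 8 h and 566, 752 and 632 CPM at DC 8 h. After 22 h it was at 482, 546 and 528 CPM with IF and at 529, 541 and 525 CPM with DC. All 6 libraries at 22 h lay below all 3 unstimulated ones and below all 6 at 8 h.

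At IF 22 h H3f3b fell by 0.64 ± 0.13 on the log2 scale, from 809 ± 51.1 to 519 ± 33.3 CPM (SD, n = 3; edgeR adjusted p = 0.00753). At DC 22 h it fell by 0.60 ± 0.13, to 532 ± 8.67 CPM (edgeR adjusted p = 0.00885). At 8 h the log2 fold changes were -0.40 with IF (edgeR adjusted p = 0.0767) and -0.32 with DC (0.172). For H3f3b at IF 8 h the DESeq2 adjusted p was 0.0174, and with only the compared groups fitted the edgeR adjusted p was 0.0231. IF and DC differed by -0.04 (95% interval -0.31 to 0.24) at 22 h. The IF 22 h call was kept in all 6 fits that left out 1 library. Without IF 22 h replicates 2 and 3 together its log2 fold change was -0.75 with an edgeR adjusted p of 0.109. The DC 22 h call was kept in 5 of 6 such fits, with -0.56 (edgeR adjusted p = 0.0505) without unstimulated replicate 2. Scaled by library size alone, the DC 22 h log2 fold change was -0.27 (edgeR adjusted p = 0.145).

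H3f3a did not pass the test in any comparison. It was at 651, 727 and 672 CPM in unstimulated libraries, 588, 644 and 598 CPM at IF 22 h, and 608, 481 and 961 CPM at DC 22 h, so that the DC 22 h libraries span the whole range seen in the 15. The opposite-strand genes, H3f3aos and Gm17275, share 160 and 638 exonic bases with it. Of 9 H3.3 chaperones, Atrx rose at IF 22 h (log2 fold change 0.69, edgeR adjusted p = 0.0281; 0.61 and 0.421 without IF 22 h replicates 2 and 3) and DC 22 h (1.02, edgeR adjusted p = 0.00213). Cabin1, of the HIRA complex, fell by 0.69 at DC 22 h (edgeR adjusted p = 0.0249). Asf1b hands both replication and replacement H3 to other chaperones. It fell by 1.42 at IF 8 h (edgeR adjusted p = 0.0382) and rose from 8 h to 22 h of DC by 1.94 (edgeR adjusted p = 0.0283). Of all genes, 7.76% passed at IF 8 h, 6.08% at IF 22 h, 7.76% at DC 22 h and 0.48% from 8 h to 22 h of DC.

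Hmgb1 (chr5:149046702-149184489, minus strand) and Hmgb2 (chr8:57511907-57515999, plus strand) are HMG box proteins, and Hmgb2 is the form tied to dividing cells. Hmgb2 was at 45.2, 48.6 and 41.0 CPM in unstimulated libraries, 32.1, 32.8 and 36.7 CPM at IF 8 h, and 29.3, 24.8 and 30.2 CPM at DC 8 h. At 22 h it was 42.6, 16.9 and 16.4 CPM with IF and 69.4, 80.3 and 54.5 CPM with DC. The 3 DC 22 h libraries were the highest of all 15 and did not overlap any other group. In IF 22 h, replicates 2 and 3 were the lowest of all 15, and replicate 1 lay within the range of unstimulated cells. In the order of group means, DC 22 h, unstimulated cells and IF 8 h each lay clear of the next group, and DC 8 h overlapped IF 22 h.

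At 22 h Hmgb2 was lower with IF than with DC, with a log2 fold change of -1.44 ± 0.29, at 25.3 ± 15.01 against 68.1 ± 12.9 CPM (SD, n = 3; edgeR adjusted p = 0.0147). It was the 1 of 10 members that passed in this comparison, where 2.43% of all genes did. The 2 low libraries are the 2 with little mitochondrial ribosomal RNA, and without both the log2 fold change was -0.68 (edgeR adjusted p = 0.844). Without IF 22 h replicate 2, IF 22 h replicate 3 or DC 22 h replicate 1 alone, the log2 fold change was -1.22, -1.20 and -1.42 (edgeR adjusted p = 0.0931, 0.0914 and 0.0502), and without IF 22 h replicate 1 it was -2.03 (edgeR adjusted p = 2.59e-05). With only these groups in the fit the log2 fold change was -1.45 (edgeR adjusted p = 0.185).

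The other Hmgb2 differences did not pass the test in the main edgeR fit, which holds all libraries and uses the low-count filter. Against unstimulated cells the log2 fold changes were -0.41 and -0.68 after 8 h with IF and DC, and -0.84 (edgeR adjusted p = 0.108) and 0.60 (edgeR adjusted p = 0.235) after 22 h. The value of -0.84 rests on 2 libraries: it was -0.08 without IF 22 h replicates 2 and 3 (edgeR adjusted p = 0.974), -1.43 without IF 22 h replicate 1 (edgeR adjusted p = 0.000461), and without the low-count filter its edgeR adjusted p was 0.0254. From 8 h to 22 h of IF the Hmgb2 value was -0.43 (edgeR adjusted p = 0.542). Its sign depends on the libraries kept: it was -1.02 without IF 22 h replicate 1 (edgeR adjusted p = 0.0102) and 0.34 without replicates 2 and 3 (edgeR adjusted p = 0.910). From 8 h to 22 h of DC the Hmgb2 value was 1.27 ± 0.29 with an edgeR adjusted p of 0.0699. In a fit of just the DC groups with their replicate numbers as a block, added after the data were seen, it was 1.25 (edgeR adjusted p = 0.0152). DESeq2 gave an adjusted p of 0.00603. It also passed without the low-count filter (edgeR adjusted p = 0.000176) and without DC 22 h replicate 3 (1.41, edgeR adjusted p = 0.0340). These were 4 of 13 alternatives, and in the other 9 it did not pass. Among those 9 was the fit of just the DC groups without the block, in which 0 of all genes passed. In the main fit of DC 22 h against 8 h, 0 of 10 members passed by edgeR, against 0.48% of all genes. There 4 members and 978 of all genes had an unadjusted p under 0.05, and DESeq2 called 2 members and 210 of all genes. At 8 h, IF and DC differed in 0 of 10 members by edgeR against 0.665% of all genes, with 0 members and 896 of all genes at an unadjusted p under 0.05, and 0 members and 194 of all genes called by DESeq2.

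Whether the difference between IF and DC itself changed from 8 h to 22 h was tested as an interaction. By edgeR 0 of 10 members passed and 0% of all genes did, while 3 members and 858 of all genes had an unadjusted p under 0.05, and DESeq2 called 1 member and 40 of all genes. The largest member value was that of Hmgb2, -1.70 ± 0.42 (edgeR adjusted p = 0.238), and it was -0.94 without IF 22 h replicates 2 and 3. It passed in 3 of 19 alternatives: it was -2.30 without IF 22 h replicate 1 (edgeR adjusted p = 0.000203), -1.69 without the low-count filter (edgeR adjusted p = 0.00153), and -1.71 by DESeq2 (adjusted p = 0.0379). H2afx had -1.27 (edgeR adjusted p = 0.442, and 0.0450 without the low-count filter) and Hmgb1 had -0.66 (edgeR adjusted p = 0.465).

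**Figure D3:**
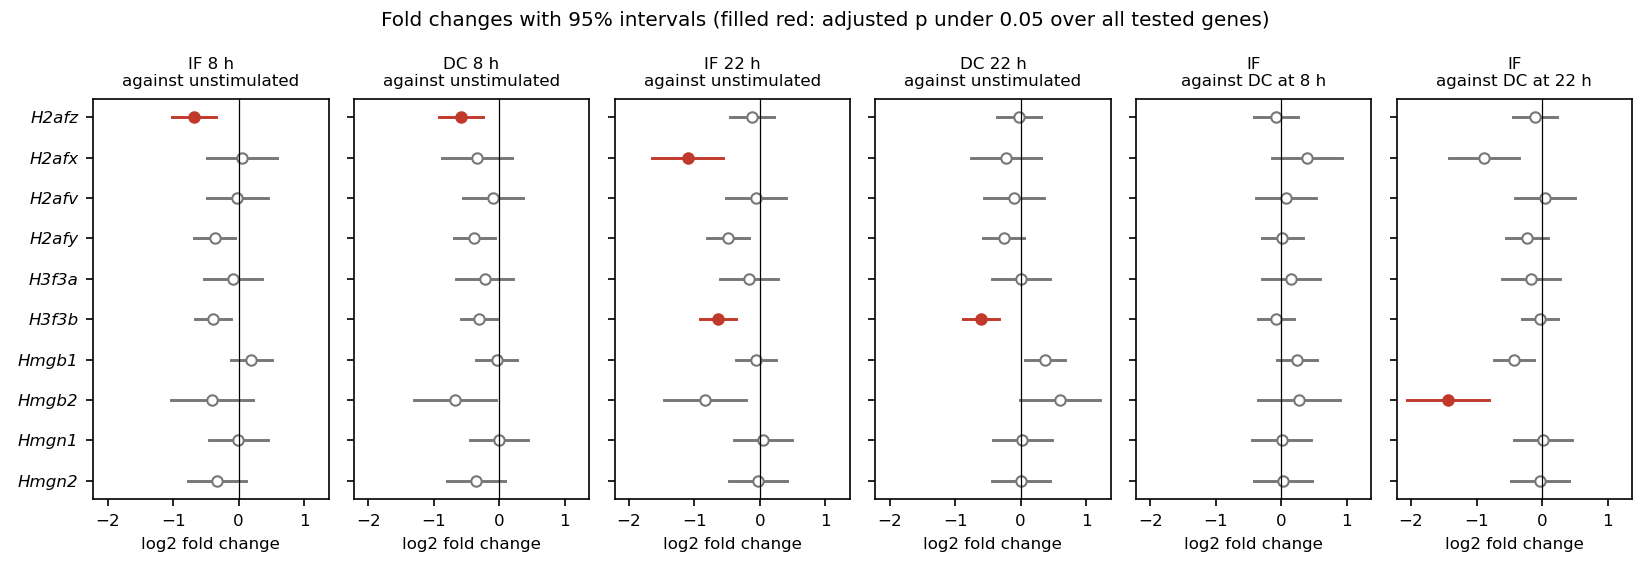
Log2 fold changes of the 10 members (points) with 95% intervals (lines) in 6 comparisons. Filled red points passed an adjusted p of 0.05: H2afz at both 8 h comparisons, H2afx at IF 22 h, H3f3b at both 22 h comparisons and Hmgb2 in IF against DC at 22 h.

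Hmgb1, the abundant HMG box protein that also acts as an alarm signal outside cells, was at 202, 212 and 234 CPM in unstimulated libraries. It was at 280, 322 and 234 CPM at DC 22 h and at 224, 204 and 193 CPM at IF 22 h, and all 3 DC 22 h libraries lay above the IF 22 h ones. The Hmgb1 log2 fold change of IF against DC at 22 h was -0.43 (edgeR adjusted p = 0.146, DESeq2 adjusted p = 0.0422), and -0.32 without IF 22 h replicates 2 and 3. The log2 fold change of DC 22 h against unstimulated cells was 0.37 (edgeR adjusted p = 0.141). Scaled by library size alone it was 0.70 (edgeR adjusted p = 0.00829), where the median of all genes also moved up by 0.33. Uspl1, on the opposite strand, shares 42 exonic bases with Hmgb1 and Mm2pr, on the same strand, 37. Hmgb1 also has many near-identical copies, and 42.1% of the 60-base words in the last 500 bases of its transcripts occur in other annotated genes, against 30.0% for Hmgb2, 28.4% for H2afz, 21.8% for H3f3a and 0% for H2afx, H2afv, H2afy and H3f3b. Values of genes with such copies are less certain, since the authors' counting could split their reads. The counts of the 2 copies listed in the tables were at most 1.59% of those of Hmgb1 in any library.

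Hmgn1 (chr16:96120618-96127729, minus strand) and Hmgn2 (chr4:133964738-133968650, minus strand) encode nucleosome-binding proteins that loosen chromatin, and neither passed the test in any comparison. Hmgn1 had group means between 226 ± 56.4 CPM at DC 8 h and 234 ± 24.0 CPM at IF 22 h, the smallest ratio of highest to lowest group mean among the 10 members (1.04, against 1.07 for H2afv). Hmgn2 was at 430, 474 and 466 CPM in unstimulated libraries, 354, 328 and 407 CPM at IF 8 h, and 337, 372 and 364 CPM at DC 8 h. At DC 22 h it ranged from 295 to 644 CPM. All 6 Hmgn2 values at 8 h lay below the 3 unstimulated ones, with log2 fold changes of -0.33 (95% interval -0.78 to 0.11) with IF and -0.35 (-0.80 to 0.09) with DC. For Hmgn2, 46.6% of the same 60-base words occur in other genes, and for Hmgn1 18.0%.

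Of 11 other HMG genes tested, Hmgn3, a further HMGN gene, was the 1 that passed in any comparison by edgeR. It fell by 2.58 on the log2 scale at IF 8 h against unstimulated cells (edgeR adjusted p = 0.0275), and was lower with IF than with DC at 8 h, with a log2 fold change of -3.50 (edgeR adjusted p = 0.0187), at 0.684 ± 0.633 against 8.78 ± 4.05 CPM. These are low levels. Of all genes, 7.76% passed at IF 8 h against unstimulated cells and 0.665% in IF against DC at 8 h. In the SET complex, which binds Hmgb2, 1 of 5 tested genes passed by edgeR, at IF 22 h, where 6.08% of all genes did. This was Anp32a, which fell by 0.83 (edgeR adjusted p = 0.0306), with -0.40 without IF 22 h replicates 2 and 3. Of 3 other variant or linker histones tested, 0 passed by edgeR in any comparison. At most 1 of them had an unadjusted p under 0.05 in a comparison, and DESeq2 called 0.

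Ratios of paralogous genes within a library do not depend on how libraries are scaled, but a ratio of counts of 2 genes is not a ratio of molecules, so its change and not its size is compared. For H3f3b over H3f3a the mean log2 ratio was 0.24 ± 0.07 (SD, n = 3) in unstimulated cells, -0.23 ± 0.05 at IF 22 h and -0.30 ± 0.53 at DC 22 h. The libraries of both 22 h groups lay below the 3 unstimulated ones, those of DC 22 h with a wider spread. This was not particular to 22 h: the IF 8 h libraries (-0.05 ± 0.32) also lay below them. Those of DC 8 h (0.15 ± 0.38) lay on both sides. For H2afz over H2afv it was 2.61 ± 0.14 in unstimulated cells, 1.94 ± 0.09 at IF 8 h and 2.53 ± 0.24 at IF 22 h, with 2.14 ± 0.51 at DC 8 h and 2.70 ± 0.63 at DC 22 h, whose libraries overlap those of unstimulated cells. For Hmgb2 over Hmgb1 it was -2.26 ± 0.21 in unstimulated cells, -3.18 ± 0.68 at IF 22 h and -2.04 ± 0.06 at DC 22 h. At 8 h it was -2.86 ± 0.16 with IF and -2.90 ± 0.24 with DC, and every library there lay below the unstimulated ones. The IF 22 h mean rests on replicates 2 and 3 (-3.60 and -3.55), while replicate 1 (-2.39) lay within the unstimulated range.

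Of 12 two-sided exact permutation tests of these ratios, 0 passed after adjustment and 2 had an unadjusted p under 0.05. The ratio of Hmgn2 over Hmgn1 was higher at 22 h than at 8 h by 0.27 on the log2 scale (exact permutation p = 0.01, adjusted 0.12). That of H2afz over H2afv was higher by 0.57 (exact permutation p = 0.035, adjusted 0.21). The smallest p these 2 tests can give is 0.005. Neither used the pairing of DC 8 h with DC 22 h by replicate number seen in these data. In order of that number, the log2 ratio of H2afz over H2afv went from 1.74 to 2.37, 2.71 to 3.43 and 1.96 to 2.30 with DC. That of Hmgn2 over Hmgn1 went from 0.81 to 0.93, 0.35 to 1.07 and 0.90 to 0.88.

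**Figure D4:**
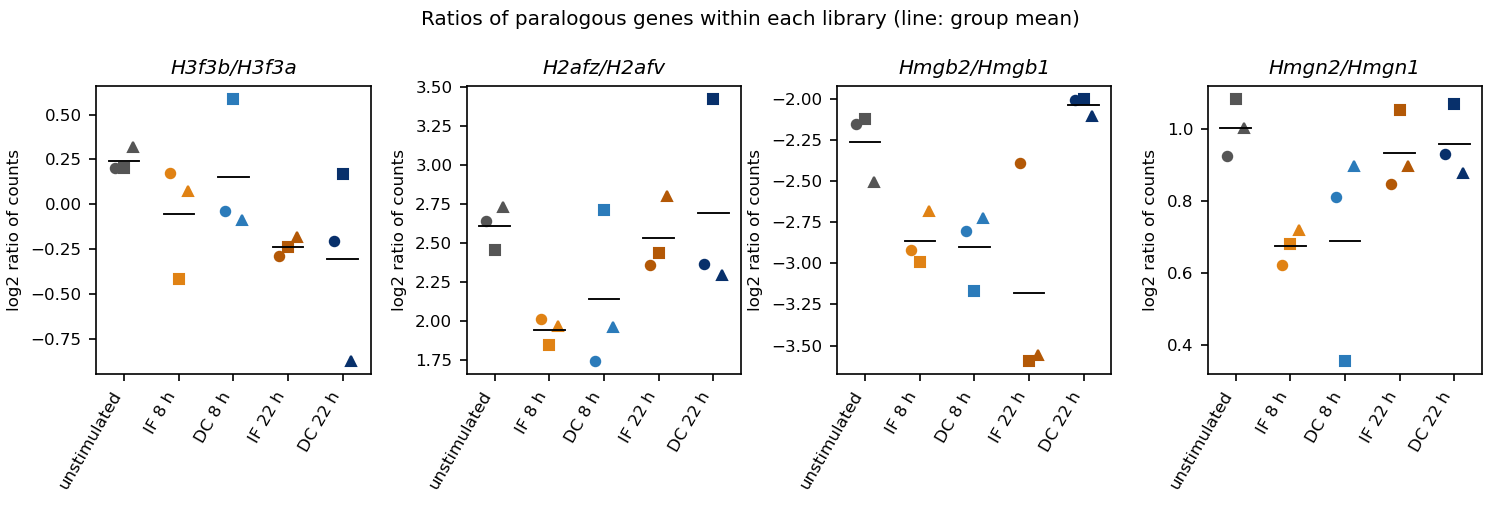
Log2 ratio of counts of 4 pairs of paralogous genes in every library (y axis; circle, square and triangle are replicates 1, 2 and 3; line: group mean; each panel has its own axis). The H2afz over H2afv and Hmgn2 over Hmgn1 ratios are lowest at 8 h, with 1 DC 8 h library apart in each, and the 3 DC 22 h libraries are the highest for Hmgb2 over Hmgb1.

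Genes of DNA replication and division were set beside the members, since H2afz, H2afx and Hmgb2 are among the genes that are higher in cycling cells. Of the 20 genes in this list, 1 fell at IF 8 h and 2 at DC 8 h, 3 rose at IF 22 h, and at DC 22 h 9 rose and 1 fell. The shares of all genes that passed, in the same order, were 7.76%, 6.82%, 6.08% and 7.76%, so the counts at 8 h are near the background. With 1 library left out at a time, 0 to 4 rose at IF 22 h and 3 to 14 at DC 22 h (3 without DC 22 h replicate 2 or unstimulated replicate 1 or 2, and 14 without DC 22 h replicate 3). Tubb5, a tubulin that makes up much of the summed level, fell by 0.70 at 8 h with IF (edgeR adjusted p = 0.00353) and fell by 0.75 with DC (edgeR adjusted p = 0.00199). At IF 22 h the helicase subunits Mcm4, Mcm5 and Mcm6 rose by 0.94, 1.30 and 1.13 (edgeR adjusted p = 0.0281, 0.0361 and 0.0258). These values were, without IF 22 h replicates 2 and 3, 0.70, 0.98 and 0.82, none past the threshold (edgeR adjusted p = 0.478, 0.494 and 0.484). Rrm2, which makes deoxynucleotides, rose at DC 22 h by 2.32 (edgeR adjusted p = 0.00565), with 371, 788 and 117 CPM against 79.4 to 90.2 CPM in unstimulated libraries. DC 22 h replicate 2 stood high, and without it the Rrm2 value was 1.54. Between IF and DC at 22 h 0 of 20 passed by edgeR, with 8 at an unadjusted p under 0.05 and 4 called by DESeq2, and 7 passed, lower with IF, without DC 22 h replicate 3.

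The summed level of the 20 genes was 3766 to 3885 CPM in unstimulated cells. With IF it was 2357 to 2646 CPM after 8 h and 3363 to 3947 CPM after 22 h, and with DC 2255 to 2671 CPM and 2889 to 5956 CPM. Both this sum and H2afz were lower in all 6 libraries at 8 h than in the other 9. Hmgb2 and H2afx departed from it at IF 22 h, where the sum spanned the unstimulated range while H2afx was low in all 3 libraries and Hmgb2 in 2. The summed level of the 17 dendritic cell genes was 733 to 1603 CPM in unstimulated cells. With IF it was 404 to 558 CPM after 8 h and 460 to 735 CPM after 22 h, and with DC 1137 to 1352 CPM and 703 to 996 CPM. The 17 did not move together. Fscn1 had a mean of 2.31 CPM in unstimulated cells, 142 CPM at DC 8 h and 85.1 CPM at DC 22 h. With IF it had 0.489 CPM at 8 h and 23.7 CPM at 22 h. Xcr1 went from 24.1 CPM in unstimulated cells down to 2.86 and 0.198 CPM with DC, and Itgax from 14.5 to 5.32 and 3.95 CPM. Zbtb46 was at 0 in unstimulated and IF 8 h libraries and at 8 to 23 counts at DC 8 h. None of the 17 was at 0 throughout either 22 h group. The part of the T cell, proliferation or dendritic cell genes in the members' differences was not tested.

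**Figure D5:**
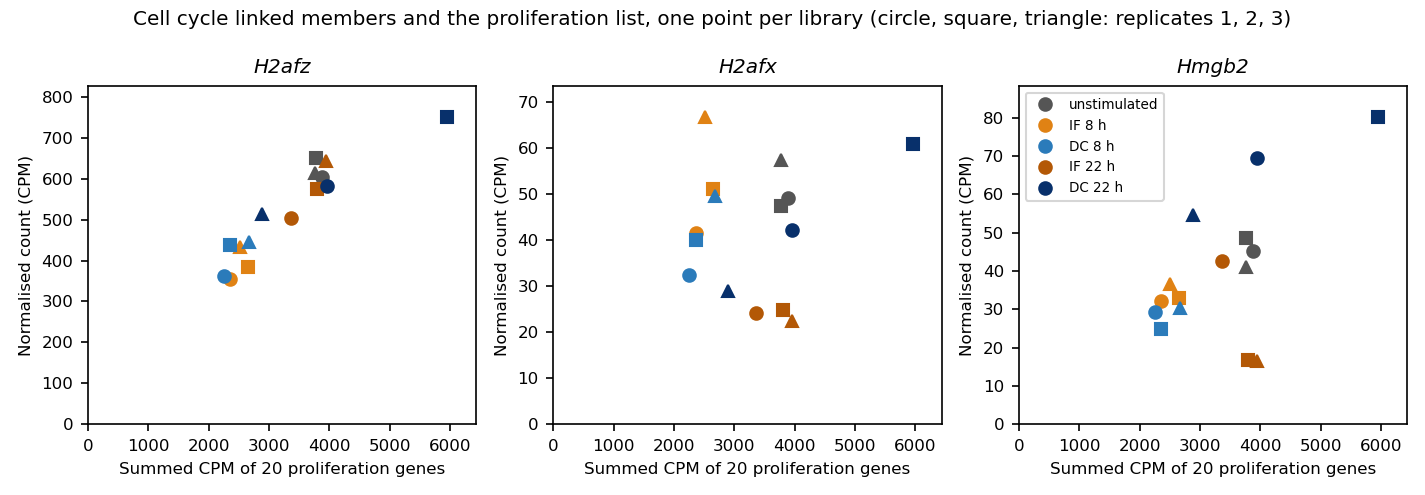
Level of H2afz, H2afx and Hmgb2 (y axis, normalised count in CPM, from 0) against the summed level of 20 proliferation genes (x axis, same unit), 1 point per library, coloured by group. For H2afz the 8 h libraries sit at the lower left and DC 22 h replicate 2 at the upper right, while the IF 22 h libraries of H2afx and 2 of those of Hmgb2 sit low.

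The clustered replication-dependent histones gave another comparison. Of 50 such genes measured, 21 were tested, and their median log2 fold change was -1.15 and -1.36 after 8 h with IF and DC, and -1.13 and -0.43 after 22 h. The number that passed, all lower, was 1, 2, 3 and 1 in that order, where 7.76%, 6.82%, 6.08% and 7.76% of all genes passed. With 1 library left out at a time it was 0 to 1, 0 to 2, 1 to 3 and 0 to 2, and the 3 at IF 22 h became 1 in all such fits but that without IF 22 h replicate 1. Hist1h1c, a linker histone, fell by 1.66 at IF 22 h (edgeR adjusted p = 0.0370; -1.41 and 0.468 without IF 22 h replicates 2 and 3) and fell by 1.81 at DC 22 h (edgeR adjusted p = 0.0210). These transcripts mostly lack the poly(A) tail that primes the libraries, so their counts stand for the polyadenylated part.

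Of 12 general histone chaperones tested, 2 rose at DC 22 h against unstimulated cells, where 7.76% of all genes passed in either direction: Nasp, a carrier of H3 and H4 (1.22, edgeR adjusted p = 0.0175), and Chaf1a, of the replication-coupled assembly factor CAF-1 (2.07, edgeR adjusted p = 0.0209). Chaf1b, its partner, fell by 1.29 at IF 8 h (edgeR adjusted p = 0.0201), the 1 of 12 that passed there, also against 7.76% of all genes. From 8 h to 22 h of DC, 2 of 12 passed against 0.48% of all genes: Chaf1a rose by 3.14 and Chaf1b by 1.43 (edgeR adjusted p = 0.0147 and 0.0432). Without DC 22 h replicate 2 the values against unstimulated cells were 0.77 for Nasp and 1.31 for Chaf1a, both no longer past the threshold. Of the calls named here for genes outside the 10 members, those of Atrx, Rad50 and Rrm2 at DC 22 h and both of Tubb5 were kept in all 6 fits that left out 1 library, that of Baz1b in 5, and each of the others in 0 to 3.

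The genes whose levels ran most like each member over the 15 libraries were taken from 6953 well-expressed genes by Pearson r, as a description. For H3f3b the closest was Tnfaip3, an inhibitor of NF-κB signalling (r = 0.93). For H2afy it was Chd3, a chromatin remodeller (r = 0.93), and for H2afx Nlrc5, an activator of MHC class I genes (r = 0.89). For Hmgb2 they were Xist, the RNA that silences an X chromosome (r = 0.93), Baz1a, a chromatin assembly factor (r = 0.90), and Ccr9, a gut-homing receptor (r = 0.86). For H2afz it was 2700094K13Rik (r = 0.93), and for Hmgn1 Anp32b, a histone chaperone (r = 0.94). Among the members themselves the highest values were between H2afz and Hmgn2 (r = 0.81), Hmgn1 and Hmgn2 (r = 0.73) and Hmgb1 and Hmgb2 (r = 0.70), and the lowest between H3f3a and Hmgn1 (r = -0.81). The points share libraries, depth and scaling.

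Across the 5 groups ordered by mean, H2afz, H2afx, H2afy, H3f3b and Hmgb1 each had 1 pair of neighbouring groups whose libraries did not overlap, and H2afv, H3f3a, Hmgn1 and Hmgn2 had 0. With Hmgb2, 6 of 10 members had at least 1 such pair, as did 26.4% of all tested genes. In H2afz the gap lay between IF 22 h and DC 8 h, in H2afx between DC 8 h and IF 22 h, in H2afy between unstimulated cells and DC 22 h, and in H3f3b between IF 8 h and DC 22 h.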

How the data were processed

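Messenger RNA was measured in 15 libraries of sorted T cells by an adapted CEL-seq protocol, with reverse transcription from barcoded primers, pooling, in vitro transcription and paired-end sequencing on a NextSeq 500, per the labels' protocols. The submitters' processing notes name BWA and mm10. How reads were assigned to genes, with or without strand and molecular identifiers, and with which annotation, is not given in the sources used here. The deposited values are unnormalised whole-number counts of 17493 genes (370 at 0 everywhere).

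From these, low genes were removed (filterByExpr, min.count 10, min.total.count 15), and libraries were scaled by TMM and fitted in 1 quasi-likelihood model of 5 group means (edgeR 4.0.16, R 4.3.3). Tests were two-sided, adjusted by Benjamini-Hochberg over 10831 genes in each of 9 comparisons. SEs are on the log2 scale, and levels are CPM from TMM-scaled totals. Paralog ratios were log2 ratios of counts plus 0.5, tested by exact permutation. All 10 members were tested in every comparison, and the text gives the values of those a result turns on. From a pathway list, at most the 3 genes with the smallest p among those past the threshold are named, and pattern likeness uses genes with a mean of at least 10 CPM (log2 CPM with a prior count of 2). The members and lists were chosen with earlier results of these data known. The tested alternatives were DESeq2 1.42.0, other scalings, no filter, the compared groups alone, the replicate number as a block, and libraries left out. The replicate numbers pair DC 8 h with DC 22 h by the data (deviations from group means of same-number libraries correlated at 0.12 to 0.40), not by the labels, and pair no other groups. A fit of the DC groups with that block was added after the data were seen. Scripts were tested on simulated data. Total counts of 2892874 to 19806730 set the precision, and replicates differed by 9.94 to 106 times counting variation (chi-square per degree of freedom).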

Additional observations from a re-analysis of the deposited data

Results flagged for a closer look

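Hmgb2 differed between the stimuli at 22 h: the log2 fold change of IF against DC was -1.44 (edgeR adjusted p = 0.0147), with all 3 IF libraries below all 3 DC libraries. It is listed because the test of the difference between the 2 stimuli passed. The change of that difference from 8 h to 22 h did not pass (edgeR adjusted p = 0.238). It passed in 3 of 19 alternatives: without the low-count filter (edgeR adjusted p = 0.00153), by DESeq2 (adjusted p = 0.0379) and without IF 22 h replicate 1 (-2.30, edgeR adjusted p = 0.000203). Without the IF 22 h libraries low in mitochondrial ribosomal RNA, replicates 2 and 3, the IF against DC value at 22 h was -0.68 (edgeR adjusted p = 0.844). With just these groups fitted it was -1.45 (edgeR adjusted p = 0.185), and the call was kept in 3 of 6 fits that left out 1 library.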

How the results depend on the processing

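Each alternative was compared with the main fit, and no member fold change past the threshold in either had the opposite sign in the other. Between alternatives the sign could differ: Hmgb2 in IF 22 h against 8 h was -1.02 without IF 22 h replicate 1 and 0.34 without replicates 2 and 3. Of the member fold changes, 1136 kept their side of the threshold, 24 came to pass it and 30 no longer passed. With library size alone as the scaling, 0 members passed at IF 8 h and 0 at DC 8 h, where 1113 and 1079 of all genes passed. The median of all genes moved by 0.24, 0.27, 0.21 and 0.33 in the comparisons with unstimulated cells. Without the low-count filter, 3 passed at IF 22 h, 2 in IF against DC at 22 h, 1 in DC 22 h against 8 h and 2 in the interaction. Of all genes, 1101, 706, 251 and 155 passed there, in the same order. With DESeq2, 2 passed at IF 8 h, 3 at IF 22 h, 3 in IF against DC at 22 h, 2 in IF 22 h against 8 h, 2 in DC 22 h against 8 h and 1 in the interaction. DESeq2 called 1269, 1066, 563, 366, 210 and 40 of all genes in that order. With just the compared groups fitted, 3 passed at IF 8 h and 0 in IF against DC at 22 h, where 1299 and 70 of all genes passed. The fit without IF 22 h replicates 2 and 3 together leaves 1 library in the group, which is assumed to vary like the others. Calls lost in that fit are not read as results on the members. The cause of these changes was not tested.

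Leaving out 1 library at a time gave 0 to 1 members at IF 8 h, 0 to 0 at DC 8 h, 1 to 4 at IF 22 h, 0 to 1 at DC 22 h, 0 to 2 in IF against DC at 22 h, 0 to 3 in IF 22 h against 8 h, 0 to 1 in DC 22 h against 8 h and 0 to 1 in the interaction. It gave 0 in all fits of IF against DC at 8 h. The highest counts came without IF 22 h replicate 1 (4 at IF 22 h and 3 in IF 22 h against 8 h) and without DC 22 h replicate 3 (2 in IF against DC at 22 h). The counts over all genes in these fits moved as well, as given below.

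Over all genes, counts moved by over 1.5 times from the main 840 (IF 8 h), 739 (DC 8 h), 658 (IF 22 h), 840 (DC 22 h), 72 and 263 (IF against DC at 8 h and 22 h), 121 and 52 (22 h against 8 h with IF and DC) and 0 (interaction). DESeq2 called 1269, 1175, 1066, 1267, 194, 563, 366, 210 and 40 in that order. Without the filter the counts were 1129 at DC 8 h, 1101 at IF 22 h, 1278 at DC 22 h, and 215, 706, 502, 251 and 155 in the last 5. The compared groups alone gave 1299 at IF 8 h, 993 at IF 22 h, 517 at DC 22 h, 47 and 70 in IF against DC, and 0 in DC 22 h against 8 h. Library size alone gave 1586 at DC 22 h. Without IF 22 h replicates 2 and 3 the counts were 99, 8 and 0 in IF 22 h against unstimulated cells, DC and IF 8 h. Leaving out 1 library at a time moved 44 of 60 counts by over 1.5 times, with ranges of 419 to 573, 404 to 665, 283 to 947, 454 to 984, 27 to 52, 90 to 759, 24 to 541, 1 to 138 and 0 to 279 in the same order.

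With the replicate number as a block, 0 members passed in IF 22 h against 8 h (H2afx, edgeR adjusted p = 0.0515), and the other calls stayed. Same-number libraries of DC 8 h and DC 22 h correlated in all 3 pairs (0.12 to 0.40, other numbers -0.31 to 0.12), and no other groups did so: in all, 4 of 30 pairs exceeded 0.1, and 9 of 15 libraries correlated best with their own number. A fit of just the DC groups with this replicate block, chosen after seeing the data, called 1 member in DC 22 h against 8 h (Hmgb2) and 166 genes, against 49 with the block over all groups. The lowest count of a member in a library was 99, for Hmgb2.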
